A study of Homo sapiens with 6 samples.

Results

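The genes described here are 34 genes of the Hippo pathway and of transcription through YAP and TEAD, of 78932 genes in the count table. They were chosen by name, with earlier results of the docetaxel comparison known, so their fold changes are given as a description and as support for nothing. The study sequenced poly(A) RNA from cells labelled HCC1937. The line of that name is a breast cancer line that carries a BRCA1 mutation and is classed as triple negative. The cells of 3 libraries had been exposed to docetaxel, a taxane that stabilises microtubules, at 8 nM for 24 h, and the cells of 3 control libraries had not. The title of the series concerns estrogen receptor and the arachidonic acid pathway, and no question about Hippo signalling was stated. The labels describe biological replicates but not how they were grown apart, and each p-value thus reflects the spread among these 6 libraries, which may be partly technical.

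The Hippo pathway is a kinase cascade that limits tissue growth. The kinases STK3 and STK4 (MST2 and MST1), held by the scaffold SAV1, activate LATS1 and LATS2 with their MOB1 adaptors, and the LATS kinases phosphorylate the coactivators YAP1 and WWTR1 (TAZ), which then stay in the cytoplasm or are degraded. Unphosphorylated YAP1 and WWTR1 enter the nucleus and activate genes such as CCN1, CCN2 and ANKRD1 by binding TEAD transcription factors. In epithelial cells the pathway is known to respond to cell contact, polarity and tension of the cytoskeleton. RNA counts do not measure phosphorylation or location of these proteins. In RNA from whole cultures, fewer cells that express a gene and less RNA per cell cannot be told apart.

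Depth was similar in all libraries, with totals of 38622062 to 39181848 counts in the docetaxel libraries and 39033097 to 41675186 counts in the control libraries. Of the genes, 18040 had enough counts to be tested. The cell type named in the labels was only partly met by epithelial markers. The identity of the line, and with it the BRCA1 mutation, could not be checked further. KRT8, KRT18 and KRT7, simple epithelial keratins, averaged 1969, 667 and 477 CPM (counts scaled to 1000000 per library, with TMM scaling between libraries) over all 6 libraries, whereas the epithelial adhesion genes EPCAM and CDH1 averaged 0.0666 and 0.692 CPM. The other epithelial markers, KRT19, KRT5, KRT14, CDH3 and CLDN4, averaged 0.107, 0.0386, 0.128, 0.258 and 2.96 CPM. The mesenchymal filament gene VIM averaged 362 CPM, and the leukocyte marker PTPRC 0.00423 CPM. The summed CPM of 10 epithelial markers, nearly all of it from KRT8, KRT18 and KRT7, ran from 3307 to 3424 in the docetaxel libraries. In the control libraries it ran from 2777 to 2911. This sum thus differed between the groups, and its part in the results below was not tested. A fit with offsets for GC content and gene length is described below. In it the log2 fold change (docetaxel over control) of KRT8 went from 0.23 to 0.12. For KRT18 it went from 0.15 to 0.04, and for KRT7 from 0.37 to 0.18. The sums of 4 mesenchymal markers were 363 to 370 CPM with docetaxel and 377 to 388 CPM in controls, and those of 4 fibroblast markers 145 to 150 CPM and 139 to 144 CPM. Those of 2 endothelial markers were 2.39 to 3.25 CPM with docetaxel and 1.85 to 2.50 CPM in controls, and those of 2 leukocyte markers 0.0518 to 0.0525 CPM and 0 to 0.102 CPM. Nearly all of the fibroblast sum came from COL1A1 (140 CPM over all 6 libraries), while DCN, LUM and PDGFRB averaged 0.12, 0.0625 and 4.57 CPM. Nearly all of the mesenchymal sum came from VIM, while ZEB1, ZEB2 and CDH2 averaged 10.6, 2.23 and 0.0338 CPM.

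TEAD proteins are known to bind the letters GGAATG, written CATTCC on the other strand. Promoter sequences from RefSeq (GRCh38.p14) were found for 28 of the 34 genes, with 41 start sites. CCN1, TEAD1, TEAD4, STK3, CRIM1 and ARHGEF17 were not among the 28, so their promoters were not examined. In the 200 bases that lie 250 to 51 bases before the start, the motif was present on either strand at 8 of these 41 starts (19.5%), against 9.71% of 35116 starts in the whole table. CCN2 held 3 copies, which 0.0456% of all starts do, and ANKRD1 and WWC2 held 2 each, as 0.669% of all starts do at least. YAP1, PTPN14, AXL, AMOTL2 and AJUBA held 1 copy each and VGLL3 none in this window. WWC2, PTPN14, YAP1 and VGLL3 were all lower with docetaxel, and a link of copies to direction was not tested. The windows of CCN2 and ANKRD1 are printed because these target genes were higher with docetaxel, and those of YAP1 and VGLL3 because these genes were lower. They are given 5′ to 3′ on the strand of the gene, with the motif in capitals. CCN2 is at chr6:131951423-131951622 on the minus strand, ANKRD1 at chr10:90921138-90921337 on the minus strand, YAP1 at chr11:102110197-102110396 on the plus strand and VGLL3 at chr3:86991200-86991399 on the minus strand.
CCN2: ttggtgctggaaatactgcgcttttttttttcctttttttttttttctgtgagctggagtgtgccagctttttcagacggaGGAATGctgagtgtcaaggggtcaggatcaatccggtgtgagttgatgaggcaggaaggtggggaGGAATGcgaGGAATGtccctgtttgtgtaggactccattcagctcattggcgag
ANKRD1: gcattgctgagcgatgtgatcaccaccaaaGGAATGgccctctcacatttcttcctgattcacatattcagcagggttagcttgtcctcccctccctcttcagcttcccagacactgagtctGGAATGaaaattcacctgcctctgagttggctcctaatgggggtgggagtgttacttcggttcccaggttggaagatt
YAP1: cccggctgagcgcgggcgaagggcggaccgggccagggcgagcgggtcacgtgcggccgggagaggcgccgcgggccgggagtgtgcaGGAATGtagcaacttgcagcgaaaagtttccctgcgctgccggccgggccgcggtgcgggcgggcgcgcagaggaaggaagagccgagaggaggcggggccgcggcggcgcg
VGLL3: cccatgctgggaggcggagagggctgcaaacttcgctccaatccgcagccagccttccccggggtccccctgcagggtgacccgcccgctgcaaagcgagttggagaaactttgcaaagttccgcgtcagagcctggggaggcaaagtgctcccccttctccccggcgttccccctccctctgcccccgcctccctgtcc
The copies of CCN2 lay 169 to 164, 104 to 99 and 95 to 90 bases before the start, those of ANKRD1 220 to 215 and 128 to 123 bases before it, and that of YAP1 162 to 157 bases before it. A match of letters is not evidence of a bound site, and no binding was measured.

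With docetaxel, 3 target genes of YAP and TEAD (CCN1, CCN2 and ANKRD1) rose. YAP1 itself, its relative WWTR1, TEAD1 and the TEAD cofactor VGLL3 fell, as did 4 of the 7 core kinase and adaptor genes. With offsets for GC content and gene length, WWTR1 (log2 fold change -0.08), TEAD1 (-0.07) and the 4 core genes were no longer called, and MOB1A turned to 0.04. TEAD4, the most abundant TEAD gene in these cells, was slightly higher, at a log2 fold change of 0.15 that became -0.01 with offsets for GC content and gene length together. A gene was called where edgeR's quasi-likelihood test gave an adjusted p below 0.05, adjusted over all 18040 tested genes. Among the 34 genes, 33 could be tested, 4 were called higher and 11 lower. Across all tested genes 17.0% were called, 9.14% higher and 7.82% lower. DESeq2 called 3 of the 33 higher and 11 lower, beside 9.02% and 9.3% of all tested genes, and limma-voom 4 and 10, beside 8.8% and 7.49%. The median log2 fold change (docetaxel over control) was -0.04 over the 33 genes and 0.01 over all tested genes. The libraries of the 2 groups did not overlap for 18 of the 33 genes, all above control for 6 and all below for 12, against 32.0% of all tested genes, 17.0% above and 15.0% below. ANKRD1 passed the filter on low counts only through the docetaxel libraries, so it had to differ if it was tested after this filter. Direction followed the GC content of the transcripts, as it did in the whole table, and a second fit with offsets for GC content and gene length called 6 of the 33 genes, beside 3.7% of all tested genes. Values with these offsets are given beside the results, and the GC relation is described after the genes.

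**Figure D1:**
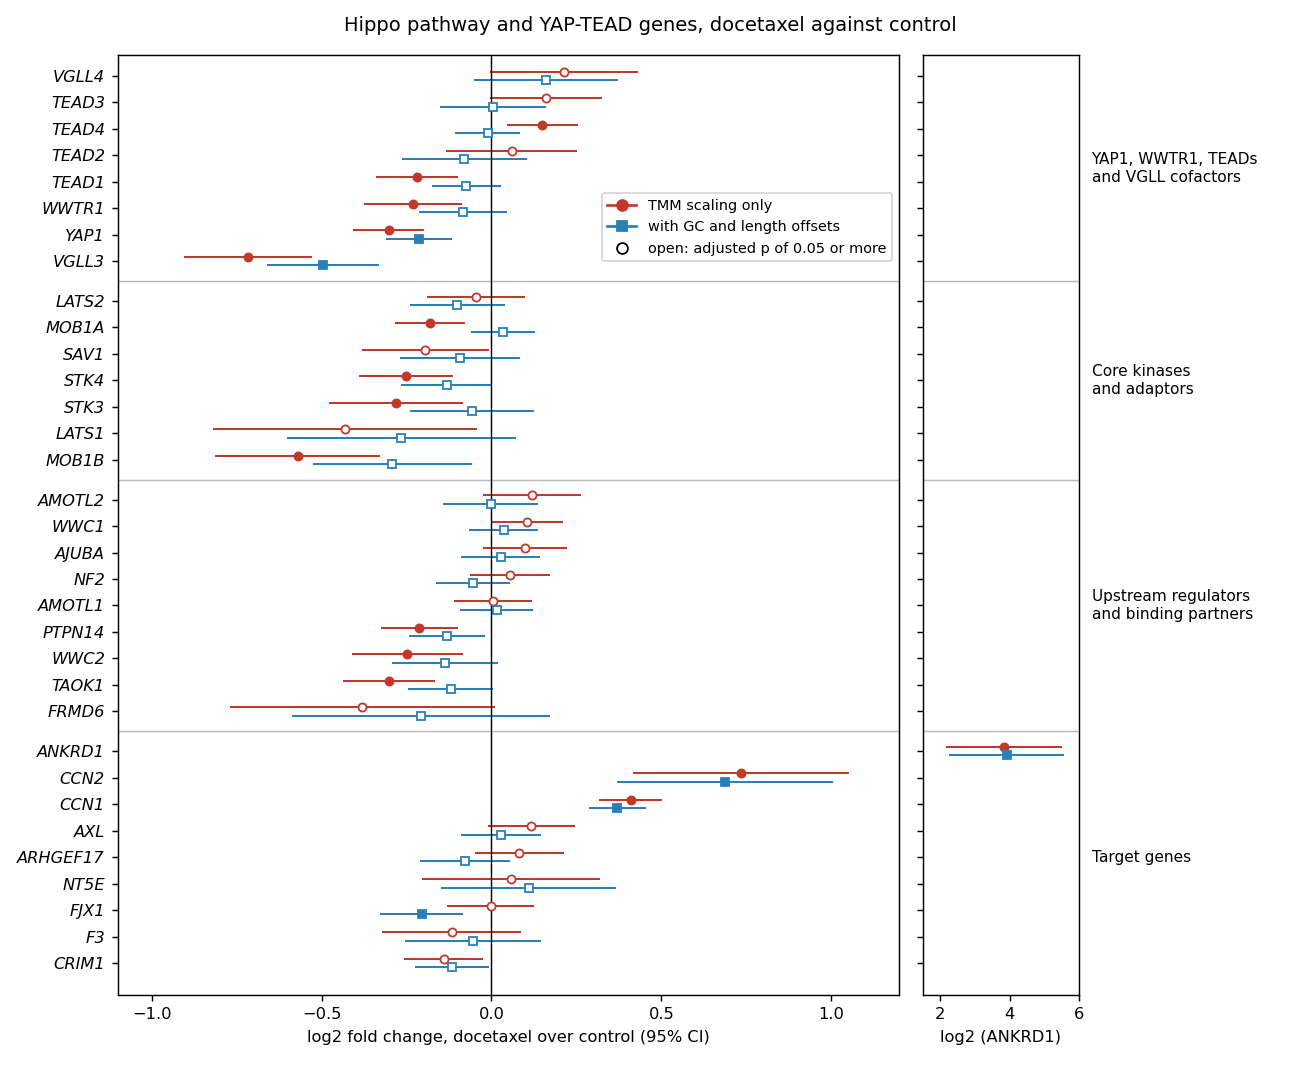
Log2 fold change (docetaxel over control) of the 33 tested genes with 95% confidence intervals, by role, from edgeR with TMM scaling (circles) and with GC and length offsets (squares). Filled symbols have an adjusted p under 0.05, ANKRD1 is drawn on its own axis, and the filled squares are CCN1, CCN2, ANKRD1, YAP1, VGLL3 and FJX1.

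YAP1, the main coactivator of the pathway (GRCh38 chr11:102110461-102233423, plus strand), had 69.6, 65.4 and 69.0 CPM in docetaxel libraries 1 to 3, against 82.6, 83.7 and 85.5 CPM in control libraries 1 to 3. Every docetaxel library lay below every control library. The difference on the log2 scale was -0.30 (standard error, SE, 0.05), which is 0.811-fold (edgeR quasi-likelihood test, adjusted p = 0.000135). With the offsets it was -0.21 (edgeR adjusted p = 0.00647), and this value missed the threshold without control 3 (adjusted p = 0.0575). All 16 alternatives called YAP1 lower.

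WWTR1, which encodes the YAP relative TAZ (chr3:149517235-149736714, minus strand), had 41.1, 35.0 and 37.0 CPM with docetaxel, against 41.9, 48.4 and 42.4 CPM in controls. The groups did not overlap, but the highest docetaxel library and the lowest control library nearly met. Its log2 fold change was -0.23 with an SE of 0.07 (edgeR adjusted p = 0.0219) and -0.08 with the offsets (adjusted p = 0.595). The call of WWTR1 was lost without control 2 (adjusted p = 0.202), docetaxel 2 (0.123) or docetaxel 3 (0.106). On a scale per length that sums to 1000000 in each library (TPM), the summed level of YAP1 and WWTR1 was 42.1 ± 2.73 with docetaxel and 52.6 ± 1.96 in controls (SD, n = 3 each). YAP1 made up 70.5 ± 1.18% of that sum with docetaxel and 71.6 ± 1.71% in controls, a difference smaller than the spread of either group.

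Among the TEAD genes, which encode the DNA-binding partners of YAP1 and WWTR1, TEAD1 fell and TEAD4 rose by the same test, and TEAD2 and TEAD3 were not called. TEAD1 (chr11:12674591-12944483, plus strand) had 92.8, 75.3 and 81.6 CPM with docetaxel, against 94.0, 100.1 and 96.3 CPM in controls. Docetaxel 1 was the highest of its group and came close to control 1. The log2 fold change of TEAD1 was -0.22 with an SE of 0.06 (edgeR adjusted p = 0.00982), and -0.07 with the offsets (adjusted p = 0.522). Its call was lost without control 2 (adjusted p = 0.0794), docetaxel 2 (0.0786) or docetaxel 3 (0.0744).

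TEAD4 (chr12:2959330-3040673, plus strand) had 77.5, 80.0 and 80.8 CPM with docetaxel, against 73.6, 68.7 and 72.5 CPM in controls. The docetaxel libraries all lay above the control libraries, by a small margin. Its log2 fold change was 0.15 with an SE of 0.05, or 1.109-fold (edgeR adjusted p = 0.0422), and -0.01 with the offsets (adjusted p = 0.952). Of 16 alternatives, 4 called TEAD4, and leaving out any of the 6 libraries ended the call, with adjusted p from 0.0564 without control 1 to 0.172 without control 2. TEAD3 had 25.03, 23.4 and 24.7 CPM with docetaxel, against 22.4, 20.2 and 22.9 CPM in controls, and did not pass the test (log2 fold change 0.16, edgeR adjusted p = 0.193, and 0.00 with the offsets). TEAD2 had 15.3, 17.1 and 16.4 CPM with docetaxel, against 16.6, 15.03 and 15.2 CPM in controls, with overlapping groups (log2 fold change 0.06, 95% interval -0.13 to 0.25, edgeR adjusted p = 0.756, and -0.08 with the offsets). In TPM, TEAD4 held 62.2 ± 1.27% of the summed level of the 4 TEAD genes with docetaxel and 59.5 ± 0.474% in controls (SD, n = 3 each). TEAD1 held 13.9 ± 1.45% with docetaxel and 17.1 ± 1.04% in controls, and no library of either gene's share crossed into the other group. No offsets were applied to these shares. The GC content was 60.4% for TEAD4 and 41.3% for TEAD1, and neither gene was called with the offsets. The sum itself was 154.4 ± 3.98 TPM with docetaxel and 149.6 ± 2.75 TPM in controls.

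VGLL3 and VGLL4 encode vestigial-like cofactors that bind TEADs at a surface shared with YAP1, and VGLL4 is known to oppose YAP1. VGLL3 (chr3:86876388-86991119, minus strand) showed the strongest fall of the 34 genes, with 19.6, 15.5 and 15.2 CPM with docetaxel, against 26.4, 29.7 and 26.6 CPM in controls. The groups were far apart. Its log2 fold change was -0.72 with an SE of 0.09, or 0.609-fold (edgeR adjusted p = 3.95e-06), and -0.50 with the offsets (SE 0.08, adjusted p = 0.000114). VGLL3 was called lower in all 16 alternatives and, with the offsets, without any 1 of the 6 libraries, where the log2 fold change ran from -0.58 to -0.42. VGLL4 had 14.5, 15.2 and 12.5 CPM with docetaxel, against 11.4, 13.2 and 11.7 CPM in controls, with groups that overlapped (log2 fold change 0.21 with an SE of 0.11, edgeR adjusted p = 0.185, and 0.16 with the offsets). Of the exonic bases of VGLL4, 23.7% are shared with genes on the opposite strand, and the strand setting of the counting is not given, so its reads and theirs cannot be told apart. WWC2, SAV1 and TEAD2 share 25.9%, 14.9% and 10.7% of their exonic bases in the same way, and the other genes under 10%.

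**Figure D2:**
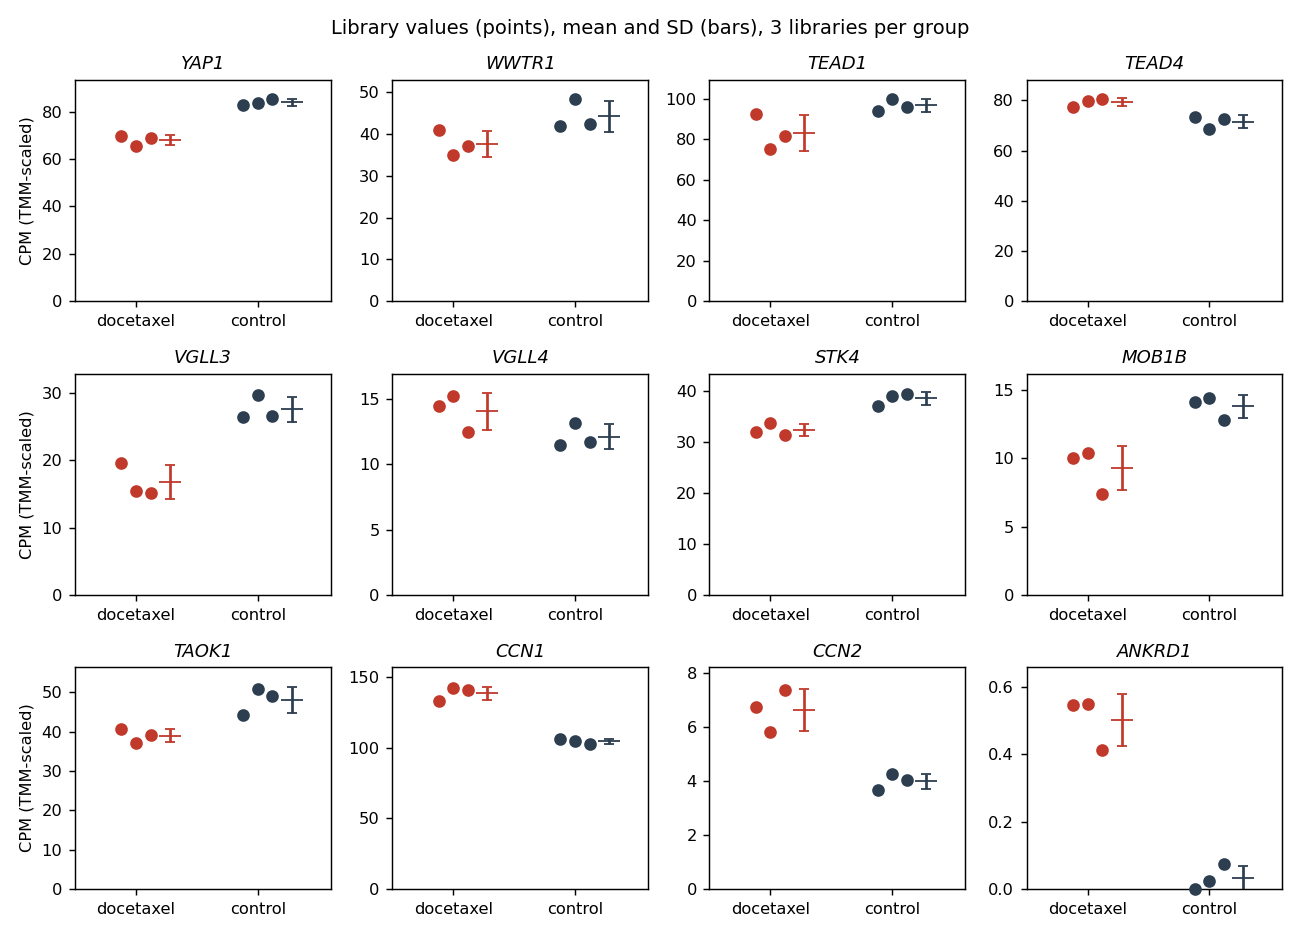
TMM-scaled CPM of 12 genes in each library (points, docetaxel left of control) with the group mean and SD (bars, 3 libraries per group, each axis from 0). CCN1, CCN2 and ANKRD1 lie higher with docetaxel and VGLL3 and YAP1 lower with no overlap, while VGLL4 overlaps. The SD bar of ANKRD1 in controls is cut at 0.

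The core of the cascade comprises the kinases STK3, STK4, LATS1 and LATS2, the scaffold SAV1 and the LATS-binding adaptors MOB1A and MOB1B. All 7 had a log2 fold change below 0, with a median of -0.25, and 4 passed the test (STK3, STK4, MOB1A and MOB1B), beside 7.82% called lower among all tested genes and a median of 0.01. The median GC content of the 7 was 39.7%, against 48.9% over all tested genes. LATS1, MOB1A, MOB1B and STK3 lay in the lowest of 5 GC bins, where 28.8% of all genes were called lower. STK4 and SAV1 lay in the bin above (10.1%) and LATS2 in the middle bin (2.86%). With the offsets, edgeR called 0 of these 7, beside 3.7% of all tested genes, 6 were below 0 and the median was -0.10. An unadjusted edgeR p under 0.05 was then found for 1 of the 7, beside 2935 of all 18040 tested genes.

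MOB1B had 10.01, 10.4 and 7.41 CPM with docetaxel, against 14.1, 14.4 and 12.8 CPM in controls. This was the largest fall among the core genes, at a log2 fold change of -0.57 with an SE of 0.12 (edgeR adjusted p = 0.00106), and -0.29 with the offsets (adjusted p = 0.167). MOB1A, which held 93.3 ± 1.37% of the summed MOB1 TPM with docetaxel and 91.5 ± 0.544% in controls, had 94.5, 91.3 and 100.6 CPM with docetaxel, against 103.4, 113.2 and 107.8 CPM in controls, with no overlap. The log2 fold change of MOB1A was -0.18 with an SE of 0.05 (edgeR adjusted p = 0.0111) and turned to 0.04 with the offsets (adjusted p = 0.802). It was not called without control 2 (adjusted p = 0.0758) or docetaxel 2 (0.0568).

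STK4 had 32.0, 33.7 and 31.5 CPM with docetaxel, against 37.1, 39.1 and 39.4 CPM in controls, and STK3 had 16.01, 13.8 and 15.96 CPM against 18.6, 20.2 and 16.8 CPM. Neither kinase overlapped between the groups. The log2 fold change was -0.25 for STK4 (SE 0.07, edgeR adjusted p = 0.00832) and -0.28 for STK3 (SE 0.10, adjusted p = 0.0419). With the offsets STK4 had -0.13 (edgeR adjusted p = 0.323) and STK3 -0.06 (adjusted p = 0.843). The STK4 call was lost without docetaxel 3 (adjusted p = 0.0571). The STK3 call was lost without control 1 (0.0958), control 2 (0.240), docetaxel 2 (0.190) or docetaxel 3 (0.0774), and it held in 7 of 16 alternatives.

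LATS1 had 8.60, 4.36 and 6.79 CPM with docetaxel, against 7.76, 9.77 and 9.07 CPM in controls. Docetaxel 1 lay inside the range of the controls, and LATS1 did not pass (log2 fold change -0.43 with an SE of 0.18, edgeR adjusted p = 0.128). It was called lower without docetaxel 1 (log2 fold change -0.69, adjusted p = 0.00388) and with no filter on low counts (-0.43, adjusted p = 0.0207), and with the offsets it had -0.27 (adjusted p = 0.469). LATS2, the more abundant kinase of the pair, had 30.4 ± 0.700 CPM with docetaxel and 31.4 ± 0.972 CPM in controls (SD, n = 3 each, log2 fold change -0.04, edgeR adjusted p = 0.753, and -0.10 with the offsets). LATS2 made up 87.6 ± 3.34% of the summed LATS TPM with docetaxel and 84.3 ± 1.31% in controls. SAV1 had 17.7 ± 1.92 CPM with docetaxel and 20.2 ± 1.104 CPM in controls and missed the threshold (log2 fold change -0.19, edgeR adjusted p = 0.158, and -0.09 with the offsets), except without docetaxel 1 (log2 fold change -0.31, adjusted p = 0.0246).

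Upstream of the cascade and around YAP1, 9 of 10 genes could be tested. TAOK1, WWC2 and PTPN14 fell and 0 rose, beside 7.82% called lower and 9.14% higher among all tested genes. TAOK1 lay in the lowest of 5 GC bins, and WWC2 and PTPN14 in the bin above. In these bins 28.8% and 10.1% of all genes were called lower. With the offsets edgeR called 0 of the 9, beside 3.7% of all tested genes. An unadjusted edgeR p under 0.05 was then found for 1 of the 9, beside 2935 of all 18040 tested genes. TAOK1, a kinase that activates STK3 and STK4, had 40.6, 37.2 and 39.2 CPM with docetaxel, against 44.2, 50.8 and 49.0 CPM in controls. Its groups did not overlap and its log2 fold change was -0.30 with an SE of 0.07 (edgeR adjusted p = 0.00156, and -0.12 with an adjusted p of 0.339 with the offsets). PTPN14, a phosphatase that binds and restrains YAP1, had 66.9, 60.6 and 66.2 CPM with docetaxel, against 71.2, 74.98 and 78.3 CPM in controls. The log2 fold change of PTPN14 was -0.21 with an SE of 0.06 (edgeR adjusted p = 0.00674, and -0.13 with an adjusted p of 0.209 with the offsets). It was not called without control 3 (adjusted p = 0.0667) or docetaxel 2 (0.0513).

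WWC2, a relative of the scaffold KIBRA, had 21.1, 20.9 and 19.97 CPM with docetaxel, against 24.5, 24.1 and 25.04 CPM in controls. The replicates were tight and the groups apart, at a log2 fold change of -0.25 with an SE of 0.08 (edgeR adjusted p = 0.0286, and -0.14 with an adjusted p of 0.399 with the offsets). The WWC2 call was lost without any 1 of control 1 (adjusted p = 0.0688), control 2 (0.0597), control 3 (0.101), docetaxel 2 (0.0554) and docetaxel 3 (0.121). WWC1, which encodes KIBRA itself, had 69.7 ± 0.806 CPM with docetaxel and 64.8 ± 1.33 CPM in controls (SD, n = 3 each), with all docetaxel libraries above the controls, and did not pass (log2 fold change 0.10, edgeR adjusted p = 0.186, and 0.04 with the offsets).

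NF2, the Merlin tumour suppressor that recruits LATS kinases to the membrane, had a log2 fold change of 0.05 with a 95% interval of -0.06 to 0.17 (edgeR adjusted p = 0.617). AMOTL1 and AMOTL2, angiomotins that hold YAP1 at junctions, had 0.00 (interval -0.11 to 0.12) and 0.12 (-0.02 to 0.26), and AJUBA, a LIM protein that inhibits LATS kinases, had 0.10 (-0.03 to 0.22). FRMD6, a FERM-domain protein linked to the pathway, was low at 3.61 ± 1.01 CPM with docetaxel and 4.70 ± 0.371 CPM in controls (log2 fold change -0.38, edgeR adjusted p = 0.188). With the offsets the log2 fold change was -0.05 for NF2, 0.01 for AMOTL1, -0.0024 for AMOTL2, 0.03 for AJUBA and -0.21 for FRMD6, and none of the 5 was called. AMOT, the third angiomotin, had 0 reads in all 6 libraries, where a count of 0 allows a level of up to 3 counts, or 0.0720 to 0.0777 CPM by library. Such limits cover counting error only.

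Of 9 target genes, 3 were called higher, 0 lower and 6 were not called, beside 9.14% higher and 7.82% lower among all tested genes. With the offsets the same 3 were called higher and FJX1 lower, beside 2.05% and 1.65%. These 3 include ANKRD1, which passed the filter on low counts only through the docetaxel libraries. CCN1 (CYR61), a secreted matricellular protein and an early YAP target (chr1:85580761-85583962, plus strand), had 133.4, 142.0 and 140.6 CPM with docetaxel, against 106.0, 104.4 and 102.9 CPM in controls. The replicates were tight in both groups and the gap between them was wide. The log2 fold change of CCN1 was 0.41 with an SE of 0.05, or 1.33-fold (edgeR adjusted p = 2.58e-07), and 0.37 with the offsets (adjusted p = 6.78e-08). It was called in all 16 alternatives and, with the offsets, without any 1 of the 6 libraries.

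CCN2 (CTGF), its matricellular relative (chr6:131948176-131951373, minus strand), was less abundant per length, at 7.81 ± 1.02 TPM with docetaxel and 4.82 ± 0.395 TPM in controls (SD, n = 3 each). It had 259, 221 and 284 reads with docetaxel and 145, 181 and 166 reads in controls. These were 6.73, 5.80 and 7.36 CPM with docetaxel, against 3.68, 4.25 and 4.02 CPM in controls, and the groups did not overlap. Its log2 fold change was 0.73 with an SE of 0.16, or 1.66-fold (edgeR adjusted p = 0.00125), and 0.69 with the offsets (adjusted p = 0.00726). All 16 alternatives called CCN2. With the offsets the call was lost without control 1 (adjusted p = 0.0563) or docetaxel 3 (0.0721).

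ANKRD1 (CARP), an ankyrin-repeat protein known in muscle and as a YAP target (chr10:90912096-90921276, minus strand), was close to the limit of detection. It had 21, 21 and 16 reads with docetaxel, against 0, 1 and 3 reads in controls, so that every control library lay at or under the limit of 3 counts. Summed over libraries this was 58 reads with docetaxel and 4 in controls, a ratio of 15.1 after scaling by total counts (exact 95% interval 5.59 to 57.3, for counting error only). edgeR called ANKRD1 higher without the offsets (adjusted p = 0.00134) and with them (0.00334), where the call was lost without control 2 (0.0719). ANKRD1 passed the filter on low counts only through the docetaxel libraries, so it had to differ if tested after this filter, and these calls support nothing. ANKRD1 was also called with no filter. It had been chosen with earlier results known, so that call supports nothing either. DESeq2 gave it no adjusted p, and it was not tested where 1 CPM in 3 libraries was required.

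CRIM1, F3, ARHGEF17, NT5E, FJX1 and AXL did not pass the test. AXL, a receptor tyrosine kinase, had 54.0 ± 4.19 CPM with docetaxel and 49.8 ± 2.23 CPM in controls (SD, n = 3 each, log2 fold change 0.12, 95% interval -0.01 to 0.24). CRIM1, a membrane protein that binds bone morphogenetic proteins, had 65.1 ± 2.16 CPM with docetaxel and 71.8 ± 5.52 CPM in controls (log2 fold change -0.14, interval -0.26 to -0.02, edgeR adjusted p = 0.0917), and it was called lower without control 3 (log2 fold change -0.20, adjusted p = 0.0291) and with library-size scaling (-0.18, adjusted p = 0.0322). For F3, the coagulation tissue factor, the log2 fold change was -0.12 (interval -0.32 to 0.09), for ARHGEF17, a guanine nucleotide exchange factor, 0.08 (-0.05 to 0.21) and for NT5E, the CD73 ectonucleotidase, 0.06 (-0.21 to 0.32). With the offsets AXL had 0.03, CRIM1 -0.12, F3 -0.05, ARHGEF17 -0.08 and NT5E 0.11, and none of the 5 was called. FJX1, a homolog of the fly Golgi kinase four-jointed, had 43.2 ± 2.19 CPM with docetaxel and 43.2 ± 0.517 CPM in controls, at a log2 fold change of 0.00. With the offsets FJX1 had -0.21 (edgeR adjusted p = 0.0467), and this call was lost in 5 of 6 fits that left out 1 library.

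**Figure D3:**
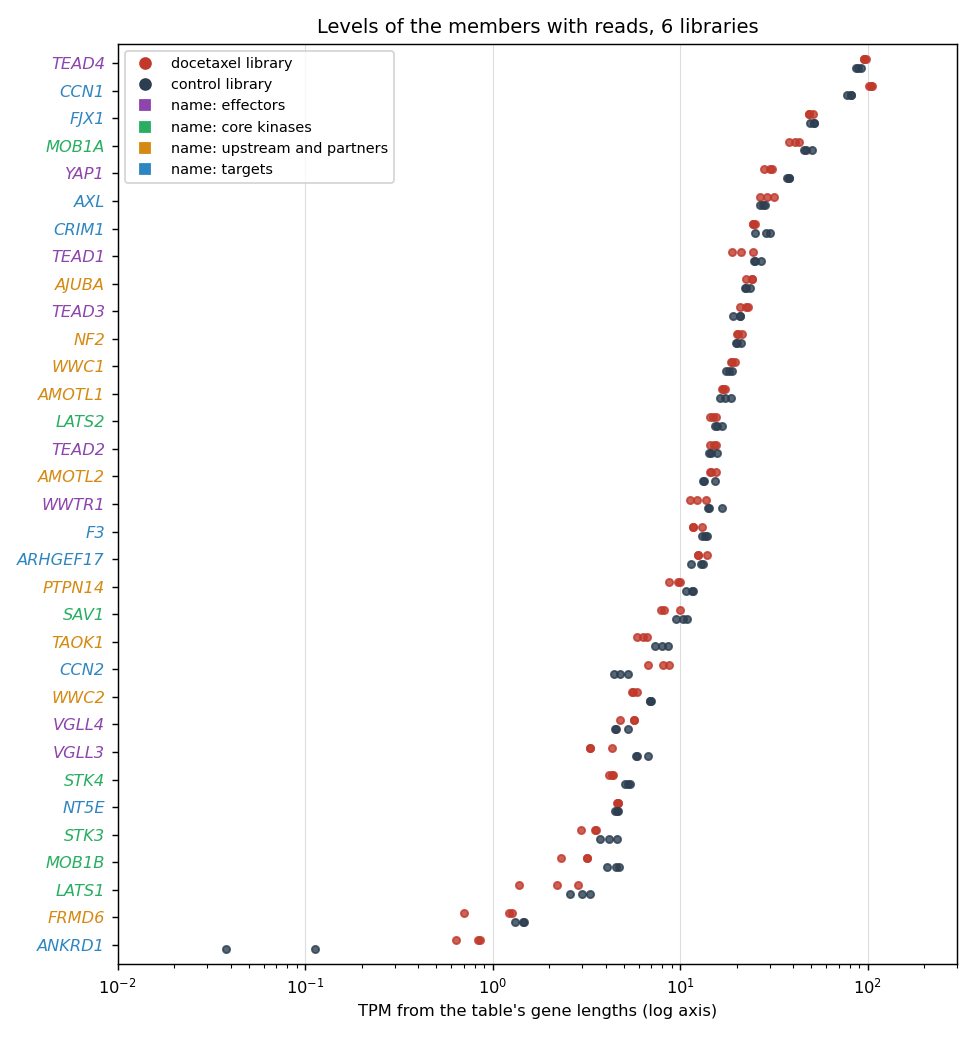
TPM of the 33 genes with reads in each library, on a log axis, from the highest mean level down, with docetaxel points above control points and gene names coloured by role. TEAD4 and CCN1 lead, ANKRD1 is lowest, and the control library in which ANKRD1 had 0 reads cannot be drawn.

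Per length, the 34 genes covered a wide range of levels. The highest were TEAD4, at 96.0 ± 1.69 TPM with docetaxel and 89.0 ± 2.29 TPM in controls, and CCN1, at 103.1 ± 1.96 TPM with docetaxel and 79.9 ± 2.13 TPM in controls (SD, n = 3 each). CCN1 was thus above TEAD4 with docetaxel and below it in controls. With the longest annotated transcript as the length, CCN1 was above TEAD4 in both groups, at 124.1 TPM with docetaxel and 96.6 TPM in controls, against 96.3 and 89.7 TPM for TEAD4. FJX1, MOB1A and YAP1 followed, and YAP1 was at 29.7 ± 1.54 TPM with docetaxel and 37.6 ± 0.603 TPM in controls. From TEAD1 down to PTPN14 the mean over all 6 libraries declined from 23.5 to 10.4 TPM in small steps, so that most neighbours were within their spread. The lowest genes with reads were MOB1B, LATS1, FRMD6 and ANKRD1, the last at 0.774 ± 0.118 TPM with docetaxel and 0.0503 ± 0.0576 TPM in controls. CCN1 and CCN2 together had 110.9 ± 2.34 TPM with docetaxel and 84.7 ± 2.21 TPM in controls, and CCN1 supplied 93.0 ± 0.848% of that with docetaxel and 94.3 ± 0.441% in controls.

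The direction of change went with GC content, taken from the longest GENCODE release 29 transcript of each gene. Across 16421 tested genes the Spearman correlation of GC content with log2 fold change was 0.536, and across 32 of the genes described here (ANKRD1 left out) it was 0.808, where the points share the same 6 libraries. In single libraries the deviation from the mean of all 6 changed with GC content by 0.04, 0.10 and 0.08 log2 units per 10% GC in docetaxel 1 to 3, and by -0.05, -0.13 and -0.05 in control 1 to 3. The sign of this slope thus separated the groups. All tested genes with a GC value were divided into 5 bins of equal size by GC content. In the lowest bin (22.8% to 41.3%) 28.8% of genes were called lower and 0.183% higher, and of 8 pathway genes there 6 were called lower and 0 higher. In the next bin (up to 46.2%) 10.1% of genes were called lower and 0.761% higher, and of 9 pathway genes 5 were lower and 1, ANKRD1, higher. In the middle bin (up to 51.9%) 2.86% were called lower and 3.65% higher, and of 5 pathway genes 0 were lower and 2, CCN1 and CCN2, higher. In the bin above (up to 58.3%) 0.579% were called lower and 13.6% higher, and 0 of 6 pathway genes were called. In the highest bin (up to 83.9%) 0.122% were called lower and 31.6% higher, and of 5 pathway genes TEAD4 was called higher and 0 lower.

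**Figure D4:**
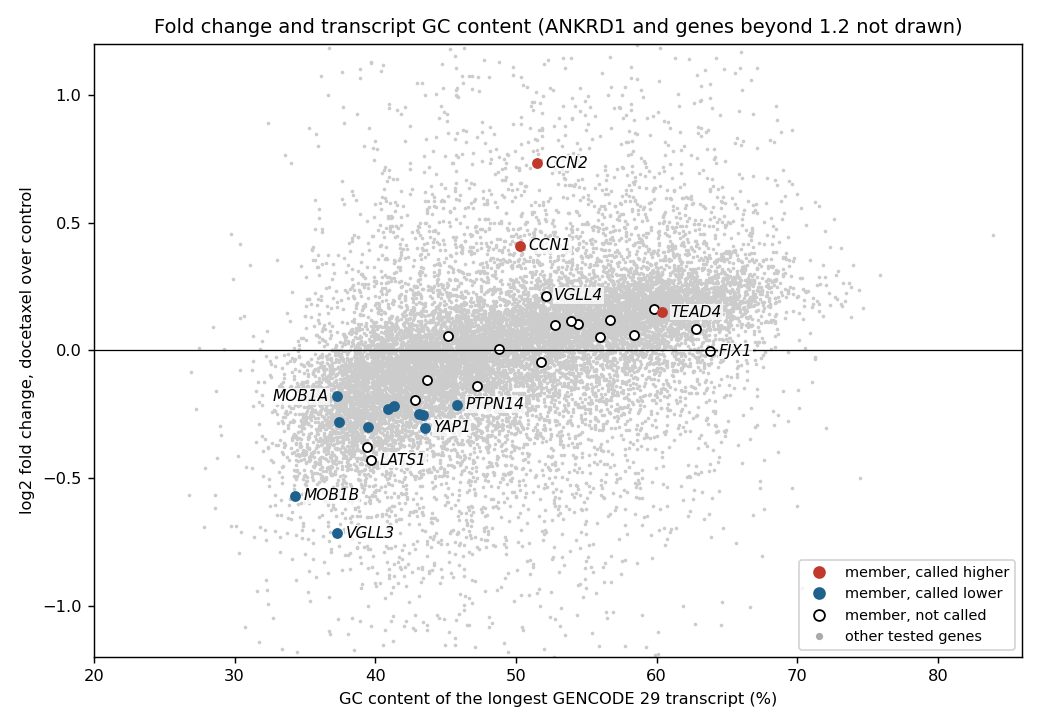
Log2 fold change (docetaxel over control) against the GC content of the longest transcript, for all tested genes (grey, within 1.2 log2 units of 0) and the genes described here (red called higher, blue called lower, open not called). Genes of low GC content lie mostly below 0, those of high GC content mostly above it, with CCN2 (0.73) and VGLL3 (-0.72) farthest from 0 among the genes drawn as circles.

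Offsets fitted to GC content and length left 3.7% of all tested genes called, 2.05% higher and 1.65% lower. The correlation over the same 32 genes was then 0.428. CCN1 and CCN2 remained higher, as did ANKRD1, which had to differ if it passed the filter on low counts. YAP1 and VGLL3 remained lower, and FJX1 joined the lower genes. WWTR1, TEAD1, TEAD4, STK3, STK4, MOB1A, MOB1B, WWC2, TAOK1 and PTPN14 were no longer called. Offsets of this kind also take away any real change that goes with GC content, so GC content and treatment cannot be told apart for those genes.

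Another 88 genes of the pathway were listed by role and not by how they moved, though with earlier results of these data known. Of these, 77 could be tested, 12 were called higher and 9 lower, with a median log2 fold change of -0.06. Among all tested genes 9.14% were called higher and 7.82% lower, with a median of 0.01. These shares are the background for each of the shorter lists below as well. With the offsets 2 were called higher (PPP2R1A and GADD45A) and 0 lower, beside 2.05% and 1.65% of all tested genes. An unadjusted edgeR p under 0.05 was then found for 18 of the 77, beside 2935 of all 18040 tested genes. Among 18 tested genes of the STRIPAK phosphatase complex, which removes activating phosphates from STK3 and STK4, 3 were called higher and 4 lower. PPP2R1A, the scaffold subunit of protein phosphatase 2A, had 454.0 ± 8.37 CPM with docetaxel and 391.0 ± 14.2 CPM in controls (SD, n = 3 each, log2 fold change 0.22, edgeR adjusted p = 0.000273, and 0.16 with an adjusted p of 0.00389 with the offsets). STK25 and STRN4 had 0.20 and 0.17, and STK26, a kinase of the complex, -0.30. With the offsets STK25 had 0.07, STK26 -0.12 and STRN4 -0.02, and none of these was called.

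Of 11 upstream kinases, 2 rose (TAOK2 at 0.23 and MINK1 at 0.21, log2) and 0 fell. Of 19 tested polarity and junction genes, 3 rose and 2 fell, among them the apical-basal polarity genes SCRIB (0.28), LLGL2 (0.19) and LLGL1 (0.20), which rose, and DLG1 (-0.29), which fell. Of 7 tested genes of YAP turnover and further cofactors, WBP2, a WW-binding coactivator, rose (0.20) and WWP1, a ubiquitin ligase, fell (-0.24). None of these 8 was called with the offsets. With 1 library left out, TAOK2 was not called without control 2 (adjusted p = 0.130), docetaxel 1 (0.0581) or docetaxel 2 (0.0582), and LLGL1 without control 3 (0.0728) or docetaxel 3 (0.0919). WWP1 was not called without control 1 (adjusted p = 0.102), control 2 (0.133), docetaxel 2 (0.127) or docetaxel 3 (0.182).

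Among 10 further genes of published YAP signatures, GADD45A, a growth arrest gene that also responds to p53, had 46.6, 47.4 and 47.4 CPM with docetaxel, against 41.3, 36.6 and 39.4 CPM in controls. The groups did not overlap, at a log2 fold change of 0.27 with an SE of 0.06 (edgeR adjusted p = 0.00309, and 0.23 with an adjusted p of 0.0175 with the offsets). ASAP1, a GTPase-activating protein, was the other gene called, at -0.22, and was not called with the offsets or without control 2 (adjusted p = 0.0954), control 3 (0.0533), docetaxel 2 (0.0788) or docetaxel 3 (0.146). Further targets called included BIRC5 and DAB2. BIRC5, the survivin gene, rose by 0.13 and DAB2, an endocytic adaptor, fell by 0.16 on the log2 scale, and neither was called with the offsets. BIRC5 was also not called without control 1 (adjusted p = 0.0922), docetaxel 1 (0.0657) or docetaxel 3 (0.0819).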

How the data were processed

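The deposited table holds, per gene, raw counts of 150-base paired reads in 6 libraries, beside a gene length column (another unit, in bases, as deposited). featureCounts 2.0.1, MultiQC 1.11 and GRCh38 are named in the submitters' processing notes. Aligner, annotation release, strand setting and treatment of multi-mapping reads were not given in the sources used here.

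The members and lists were chosen with earlier results of these data known. Library values were named for called members and for YAP1, WWTR1, the TEAD and VGLL genes, CCN1, CCN2 and ANKRD1, and in other lists up to 4 called genes with the smallest p. Symbols matched 61481 rows of the table and all 34 members. Coordinates, overlaps and GC content came from GENCODE release 29 (GC for 91.0% of tested genes), promoters from RefSeq.

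Counts were tested with edgeR 4.0.16 in R 4.3.3 (filterByExpr with a minimum count of 10, TMM, glmQLFit with robust estimation, glmQLFTest, two-sided, Benjamini-Hochberg, 95% intervals), tested on simulated data. Each standard error was derived from the test statistic. The common coefficient of variation was 0.0759. TPM used the deposited lengths. Pairs of replicates differed by more than sampling noise (dispersion index 4.92 to 12.7 over genes with at least 50 summed counts). The 16 alternatives comprised DESeq2 1.42.0, limma-voom (limma 3.58.1), scaling by library size, by RLE or by upper quartiles, no filter, at least 1 CPM in 3 libraries, a replicate block, offsets from a loess fit (span 0.5) of each library's log2 CPM deviation on GC content and log2 length (genes with no GC value had no offset), both together, and each library left out. Offsets with each library left out were added after seeing the data. A single-gene result among the other pathway genes is not reported here.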

Additional observations from a re-analysis of the deposited data

How the results depend on the processing

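Across all genes, 1649 were called higher and 1410 lower. Library-size scaling gave 1096 higher and 1866 lower, so the share of higher calls depended on scaling, while the median log2 fold change of all genes stayed within 0.05 of 0 under every scaling run. Offsets gave 369 higher and 298 lower, and the replicate block with offsets 274 and 219. Leaving out 1 library gave 990 to 1397 higher and 740 to 1841 lower. Of the members, 4 were higher and 11 lower. Offsets gave 3 lower, the block with offsets 2 lower, leaving out 1 library 3 higher and 5 to 13 lower (5 without docetaxel 2, 6 without docetaxel 3 or control 2), and offsets without 1 library 2 to 3 higher and 1 to 3 lower. Of the other pathway genes, 12 were higher and 9 lower. Library-size scaling and DESeq2 each gave 14 lower, offsets 2 higher and 0 lower, the block with offsets 2 and 0, and leaving out 1 library 9 to 12 higher and 4 to 17 lower (4 without control 2, 5 without docetaxel 2 or 3, 17 without docetaxel 1).

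The log2 fold change turned with offsets, and with offsets and block together, for TEAD2 (-0.081 in both), TEAD4 (-0.011 in both), MOB1A (0.035 and 0.034), NF2 (-0.054 in both), AMOTL2 (-0.0024 and -4.56e-05), ARHGEF17 (-0.078 and -0.077) and STRN4 (-0.020 and -0.019). AMOTL1, near 0, turned to -0.0057 with RLE scaling and with DESeq2 and to -0.035 with library-size scaling, and ran from -0.042 to 0.042 with 1 library left out. FJX1 turned to 0.011 with upper-quartile scaling, and ran from -0.054 to 0.010 with 1 library left out. The cause was not tested.

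Same-numbered libraries had deviations correlated at 0.00804, 0.00704 and 0.0157, against -0.0144 to 0.0060 for libraries with different numbers. The same-numbered values were the highest, but all values lay near 0. Such values cannot decide whether a number marks a shared culture or day. The replicate block called 1283 genes higher and 1106 lower, and 3 members higher and 8 lower. It ended the calls of WWTR1, TEAD4, STK3 and WWC2. With the longest annotated transcript as length, 15 of 33 levels moved by less than their SD and 18 by more, by a factor of 0.674 to 2.44 (STK4).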
